A study of Homo sapiens with 9 samples.

Results

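Wild-type WWOX cells were compared with WFPA mutant cells across the whole transcriptome. The comparison holds 6 of the 9 arrays of the series, the 3 titled for wild-type WWOX (WWOX) and the 3 titled for the mutant (WFPA), and the other 3 arrays, of cells with an empty vector (EV), served to place each difference. All cells were MDA-MB435S, an established line from a metastatic melanoma, grown in DMEM with serum, carrying a lentiviral vector and selected with G418. WWOX cells were made to express the wild-type protein and WFPA cells a protein with point mutations in its first WW domain. RNA of each group was read on 3 Affymetrix U133 Plus 2.0 arrays, and the deposited values are log2 intensities. The labels speak of stable clones, so that in any difference between WWOX and WFPA cells the construct and the clone cannot be told apart. Nothing in the sources states that arrays of the same group came from separate cultures, so the p-values cover array-to-array spread alone. In the labels, the field for the lentiviral vector names wild-type WWOX for the EV arrays and no construct for the WWOX arrays, which conflicts with their titles, and the titles were followed. The EV titles also carry the mark (wox+), which the labels do not explain.

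WWOX is an oxidoreductase with a pair of WW domains at its amino end. WW domains are small modules that bind short proline-rich motifs, often PPxY, in partner proteins, and the first WW domain of WWOX is the one through which most of its known partners bind. A mutant of this domain is therefore used to ask which effects of the protein need partner binding. WWOX lies in a common fragile site and is lost in many tumors. A difference between WWOX and WFPA cells can arise on either side, from a change in the wild-type cells that the mutant cells lack or from a change in the mutant cells themselves. The EV cells show on which side a difference lies, though they too differ from the others as a line.

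WWOX mRNA itself was not called different between the cells. At its brightest probe set (a set of probes that reads a transcript), log2 expression was 10.80, 10.83 and 10.34 in the WWOX arrays, 10.35, 10.12 and 10.25 in the WFPA arrays and 9.26, 8.80 and 8.74 in the EV arrays. WWOX and WFPA arrays overlapped, and both groups lay above all EV arrays. The difference between WWOX and WFPA cells was 0.42 (SE, standard error, 0.174, limma adjusted p = 0.141). At the other 4 WWOX probe sets it was 0.54 (limma adjusted p = 0.0787), 0.49, 0.13 and -0.36, and none of the 5 was called. The first of these, which was the most raised over EV cells, had mean levels of 8.18 ± 0.297 in WWOX, 7.64 ± 0.0684 in WFPA and 4.49 ± 0.314 in EV cells (SD, n = 3 arrays each). A rise over EV was not seen at every probe set. The second of the 4 stood at 8.87, 8.38 and 9.11 in the same order, with a WFPA minus EV difference of -0.73 (limma adjusted p = 0.0433). The third stood at 6.11, 5.98 and 5.98, and the last at 5.13, 5.50 and 3.91. Arrays read RNA, and the level of the proteins was not analysed here.

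Between WWOX and WFPA cells 2173 of 54613 probe sets (3.98%) differed by at least 2-fold at a Benjamini-Hochberg adjusted p under 0.05 from limma, and these are said to be called. Of them 822 were higher and 1351 lower in WWOX cells. At the 4-fold limit of the methods 253 were higher and 259 lower. Each of 19775 genes was then read by its brightest probe set. Of these genes 398 (2.01%) were called higher and 537 (2.72%) lower in WWOX cells. The 3 WWOX and 3 WFPA arrays did not overlap in any of these 935 genes, against 40.7% of all genes.

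To place each difference, the midpoint of WWOX and WFPA was compared with EV in the same limma fit. A midpoint on the WWOX side of EV means that WWOX cells lay further from EV than WFPA cells did, and a midpoint on the WFPA side means the opposite. With equal groups this second contrast is uncorrelated with the first, so that the choice of the called genes does not fix it. It passed in 7.6% of all probe sets. Of the 2173 called probe sets, 723 lay further from EV in WWOX cells, 244 further in WFPA cells, and for 1206 no side could be called. Of the 398 genes higher in WWOX cells, 224 were further from EV in WWOX and 19 in WFPA cells. Of the 537 lower genes, 137 were further from EV in WWOX and 97 in WFPA cells, and 303 had no side. On a scale where 0 is the WFPA level and 1 the WWOX level, the median EV level was 0.0868 for the higher and 0.419 for the lower genes. The EV level lay between the WFPA and WWOX levels in 243 of the 398 higher and in 389 of the 537 lower genes.

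**Figure D1:**
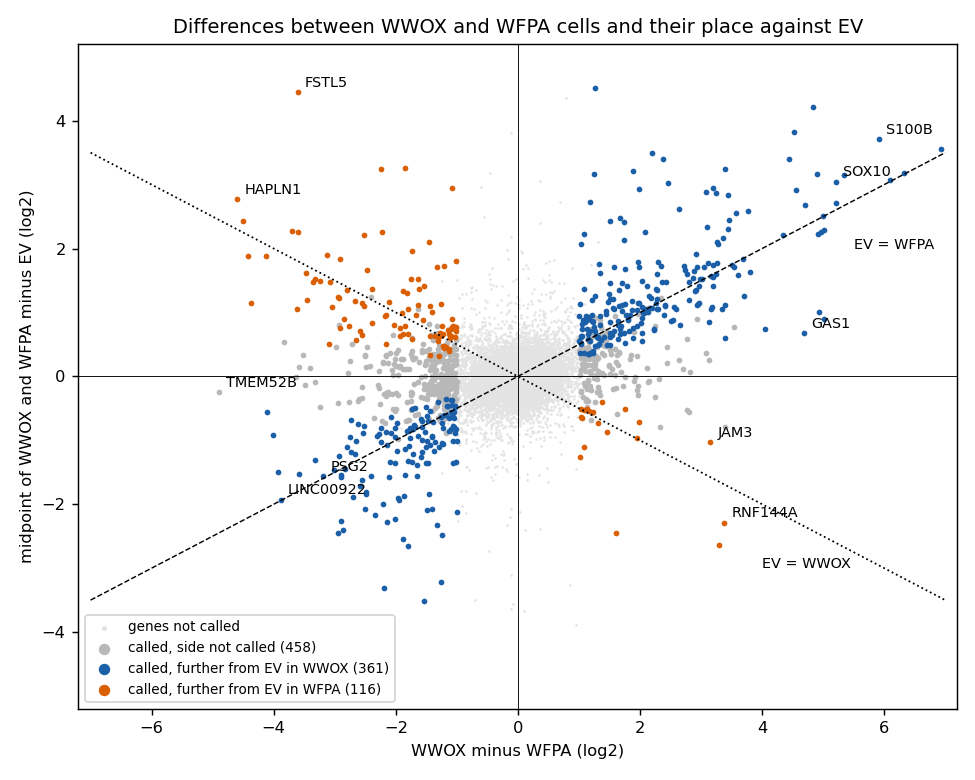
Difference between WWOX and WFPA cells (x axis, log2) against the midpoint of both minus EV (y axis, log2), 1 point per gene; dashed and dotted lines mark genes whose EV level equals the WFPA or the WWOX level. Of the called genes 361 lie further from EV in WWOX (blue), 116 further in WFPA (orange) and 458 have no called side (grey).

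The largest differences were in genes far higher in WWOX cells than in both other groups. All of the 12 genes with the largest higher level in WWOX cells were further from EV in WWOX cells. S100B, a calcium-binding protein of melanocytic and glial cells, had log2 levels of 12.37, 11.96 and 12.36 in WWOX, 6.57, 6.55 and 5.80 in WFPA and 5.62, 5.75 and 5.30 in EV arrays. It was 60.5-fold higher in WWOX than in WFPA cells (log2 difference 5.92, SE 0.223, limma adjusted p = 8.08e-07). The neural crest regulator SOX10, which directs pigment and Schwann cell development, had levels of 10.53, 10.44 and 10.67 in WWOX, 5.44, 5.30 and 5.26 in WFPA and 4.67, 5.05 and 4.96 in EV arrays. SOX10 was 37.1-fold higher in WWOX than in WFPA cells (log2 difference 5.21, SE 0.119, limma adjusted p = 7.02e-08). In both genes the WWOX arrays stood far above all others, and the WFPA arrays lay close to EV.

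The same pattern was seen in genes of other roles. The noncoding RNA LINC00326 was higher by 6.93, TMTC1, which encodes a mannosyltransferase of the endoplasmic reticulum, by 6.33, and SYTL5, a Rab27 effector in vesicle transport, by 6.10. ATP6V0D2, a subunit of the proton pump of lysosomes, was higher by 5.34 (SE 0.208, limma adjusted p = 9.68e-07). DYNC1I1, an intermediate chain of dynein, was higher by 5.01. LINC00326 (3.54), TMTC1 (3.37), LOC105374042 (2.49), CTTNBP2 (2.60) and PRKAR2B (3.86) stood in WFPA cells under 4.27, the lower quartile of all values. No background level is given, so the sizes of these differences are uncertain.

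In PRKAR2B and FRMD3 of the 12 genes, and in GAS1 outside them, WFPA cells had moved away from EV in the opposite direction. PRKAR2B, a regulatory subunit of protein kinase A, was 8.87 ± 0.28 in WWOX, 5.47 ± 0.177 in EV and 3.86 ± 0.394 in WFPA cells (SD, n = 3 arrays each). FRMD3, a FERM domain protein, was 9.54 ± 0.198, 6.07 ± 0.407 and 4.61 ± 0.241 in the same order (SD, n = 3). GAS1, a membrane protein first found in growth-arrested cells, had log2 levels of 12.14, 12.13 and 11.91 in WWOX, 9.15, 8.94 and 9.03 in EV and 7.44, 7.24 and 7.43 in WFPA arrays. It lay above EV by 3.02 in WWOX cells (limma adjusted p = 4.27e-07) and below EV by 1.67 in WFPA cells (limma adjusted p = 4.12e-05). The 3 groups of arrays did not overlap.

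Among the largest lower levels, some were losses in WWOX cells. LINC00922, a noncoding RNA, was 6.40, 6.19 and 6.69 in WWOX, 10.39, 10.19 and 10.36 in WFPA and 10.29, 10.33 and 10.27 in EV arrays. WFPA and EV arrays overlapped, and WWOX cells lay below WFPA cells by 3.89 (SE 0.128, limma adjusted p = 4.52e-07). The zinc finger gene ZNF662 (-3.93), SHOC1, a meiotic recombination gene (-4.01), and KRABD1 (-4.11) were lower on the same side, though in SHOC1 and KRABD1 the WFPA arrays also stood above EV.

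In other genes WFPA cells lay above and WWOX cells below EV. TMEM52B, a membrane protein, was 4.89, 3.52 and 5.34 in WWOX, 9.55, 9.39 and 9.50 in WFPA and 7.41, 7.13 and 7.29 in EV arrays. The groups did not overlap, the difference of -4.89 (SE 0.377, limma adjusted p = 4.51e-05) was the largest of the lower genes, and no side was called. TENM2, a teneurin of neuronal adhesion, was lower by 3.84, likewise with no side called.

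**Figure D2:**
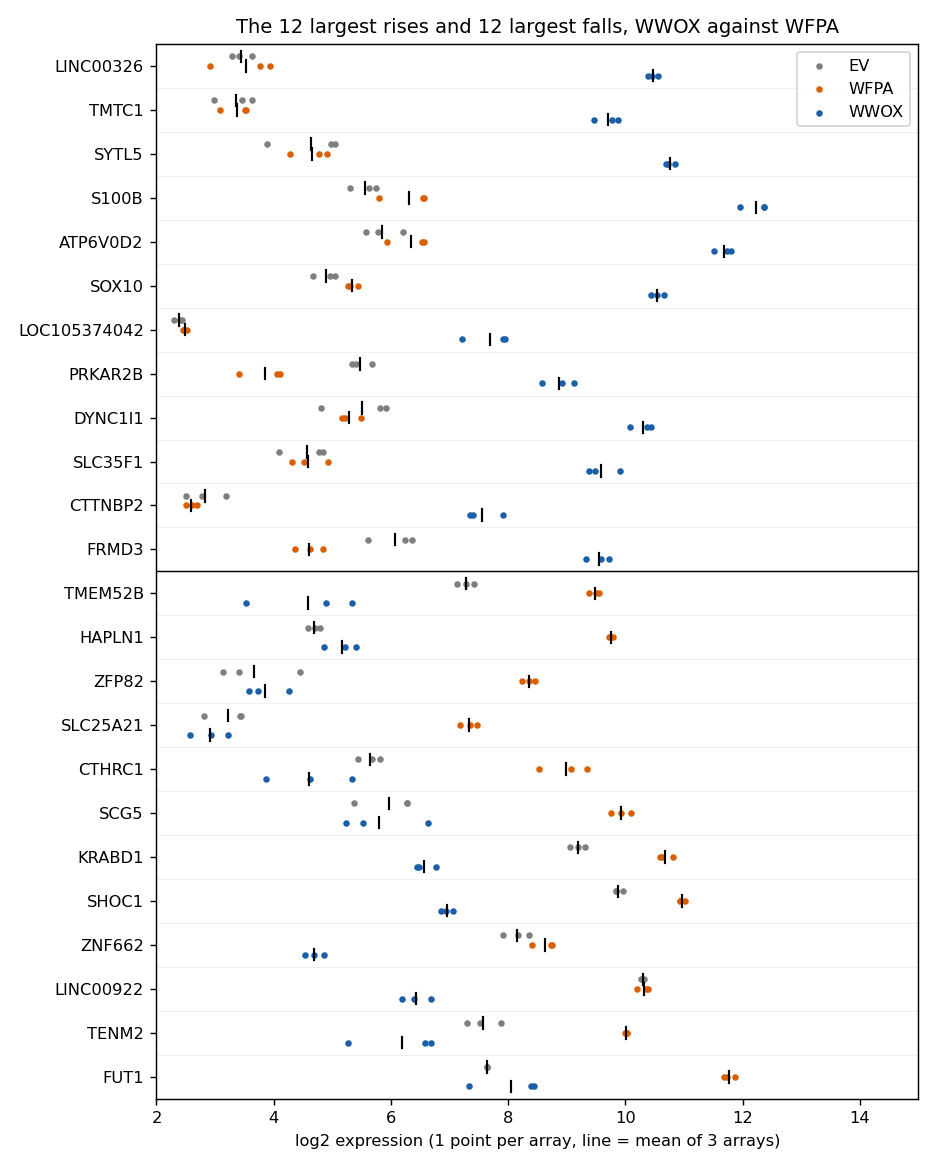
The 12 genes furthest above and the 12 furthest below WFPA cells in WWOX cells, with log2 expression on the x axis, 1 point per array and a line at the mean of 3 arrays. Among the higher genes other than PRKAR2B and FRMD3 EV and WFPA points lie close together, whereas for HAPLN1, ZFP82, SLC25A21, SCG5 and FUT1 it is EV and WWOX that do.

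Several neural crest and pigment cell genes were higher in WWOX cells. Of 23 measured neural crest, Schwann and glial genes 5 were called higher, against 2.01% of all genes, and none lower, and all 5 were further from EV in WWOX cells. The median difference from WFPA cells over the 23 genes was 0.40, against 0.07 over all genes. Beside S100B and SOX10 these were S100A1, MIA and CDH19. S100A1, another calcium-binding protein, was higher by 2.80 (SE 0.144, limma adjusted p = 4.02e-06). MIA, a secreted protein of melanoma cells, was higher by 2.18 (SE 0.147, limma adjusted p = 1.99e-05). CDH19, a cadherin of Schwann cell precursors, was higher by 2.03, though its WFPA level was low (3.34) and 1 of its 3 probe sets was called. Without WWOX replicate 1 or 2 another CDH19 probe set became the brightest, and it differed by 0.57 and 0.42 and was not called. Of the crest factors that were not called, SOX9 differed by 0.29 and PAX3 by 0.12.

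Of 21 measured pigment and melanosome genes 4 were higher, against 2.01% of all genes, and none lower. MITF, the master regulator of pigment cells, had log2 levels of 13.60, 13.45 and 13.26 in WWOX, 11.45, 11.33 and 11.43 in WFPA and 11.89, 11.83 and 11.90 in EV arrays. It was 4.09-fold higher in WWOX than in WFPA cells (log2 difference 2.03, SE 0.101, limma adjusted p = 3.52e-06), and WFPA cells lay below EV by 0.47. CAPN3, a protease with a melanocyte form, was higher by 3.02 and MYO5A, the motor that carries melanosomes, by 2.03, both further from EV in WWOX cells. MELTF, a melanoma surface protein, was higher by 1.50, with EV in between. Among the 17 genes of the list that were not called were the pigment enzymes and melanosome proteins TYR (5.75 in WWOX, 5.42 in WFPA and 5.46 in EV cells), PMEL (5.77, 5.91 and 5.80), MLANA (4.43, 4.42 and 4.38) and TYRP1 (2.21, 2.31 and 2.26), named here after their values were seen. The levels of these 4 genes lay under the overall median of 6.03 in every group. In each group 2 of the 21 genes lay under the lower quartile of all values. Most values exceed that limit, so the count does not check the identity of the labelled melanoma line.

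**Figure D3:**
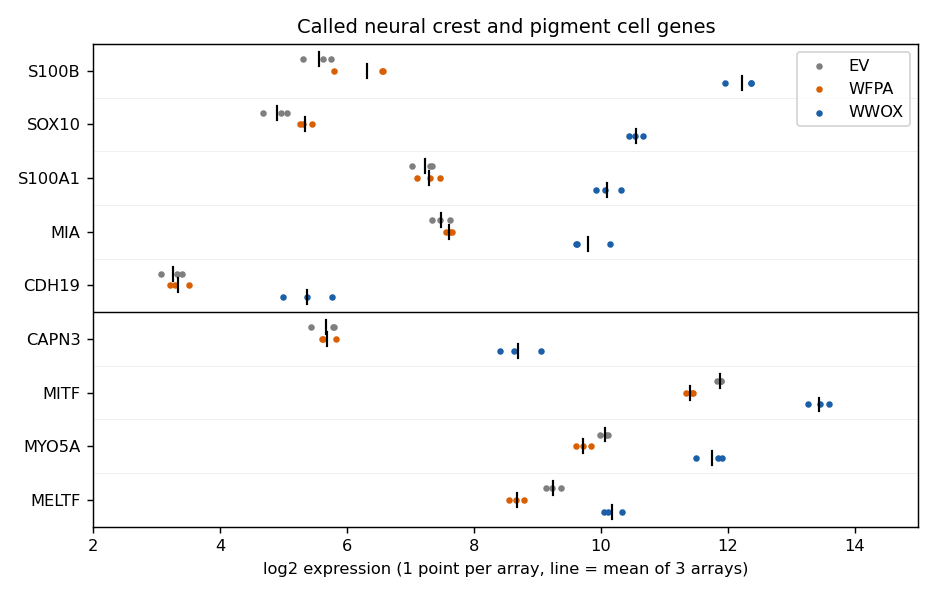
Log2 expression (x axis) of the called neural crest (upper part) and pigment cell genes (lower part), 1 point per array and a line at the mean of 3 arrays. In each gene the 3 WWOX arrays lie above all EV and WFPA arrays, and in MITF, MYO5A and MELTF the WFPA arrays also lie below EV.

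Of the genes that mark the invasive or dedifferentiated melanoma state, more were lower than higher in WWOX cells. Of 25 measured genes 7 were lower and 1 higher (32% called, against 4.73% of all genes), with a median difference of -0.34. Of these 7 genes 2 were further from EV in WFPA cells, 5 had no called side and none were further in WWOX cells. INHBA, the activin A subunit, was 5.59, 5.44 and 5.78 in WWOX, 8.94, 8.74 and 8.87 in WFPA and 7.97, 7.31 and 7.84 in EV arrays. It was lower by 3.24 (SE 0.17, limma adjusted p = 4.24e-06), with EV in between and no side called, and 1 of its 3 probe sets was called. ANKRD1, a target of YAP, was lower by 2.76 and CXCL8, a neutrophil chemokine, by 1.63, both likewise with EV in between. WNT5A, a noncanonical Wnt ligand, was lower by 2.56, but here EV (3.50) and WWOX cells (3.37) lay close together and WFPA cells stood at 5.93, so that the side was that of WFPA. The gene that was higher, the protease inhibitor SERPINE2, stood at 14.16 ± 0.0384 in WWOX, 12.08 ± 0.047 in WFPA and 12.06 ± 0.0778 in EV cells (SD, n = 3 each).

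Many genes of the amino acid stress program were raised in WFPA cells. ATF4 is a transcription factor whose translation rises when amino acids run short or proteins misfold. It switches on amino acid transporters, enzymes of serine, asparagine and cysteine synthesis, tRNA synthetases and the stress regulators CHOP (DDIT3), ATF3, CHAC1 and TRIB3. It binds a composite CCAAT/enhancer element, written TGATGNAA, in the promoters of many of these genes. Of 37 measured genes of this program 21 were lower in WWOX than in WFPA cells (56.8%, against 2.72% of all genes) and none were higher. Of these 21 genes 16 were further from EV in WFPA cells, 5 had no called side and none were further in WWOX cells. The median of the 37 genes was 1.28 above EV in WFPA cells and 0.07 below EV in WWOX cells (-0.07), where over all genes these medians were -0.04 and 0.03.

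In the promoters of RefSeq (GRCh38.p14, from 250 bases before to 50 after each start site) the element TGATGNAA was searched on both strands. Of 31 genes of the list with a promoter there, 11 held it (35.5%), and of the 18 called genes 5 (27.8%), so the element was not more frequent in the called genes. Genes not called held it too, among them AARS1, CEBPG and FGF21. The list was drawn from the ATF4 program, so its share is no result of these data. Among all 35116 promoters it was found in 3.62%. Counted by gene, it was found in 1217 of all 27305 genes (4.46%) and in 556 of the 15384 tested genes (3.61%). Of 59 genes outside the list that were lower in WWOX cells and further from EV in WFPA cells, 7 held it (11.9%), and of 95 lower genes further from EV in WWOX cells 3 did (3.16%). Windows of 60 bases around the element are shown for the 4 called genes in which the window ends before the start site, so that the shared letters can be seen beside the levels of these genes. They run 5′ to 3′ on the strand of the gene, with the element in capitals.
ASNS (chr7:97872443-97872502, minus strand): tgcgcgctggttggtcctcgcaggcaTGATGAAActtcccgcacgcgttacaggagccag
ATF3 (chr1:212565190-212565249, plus strand): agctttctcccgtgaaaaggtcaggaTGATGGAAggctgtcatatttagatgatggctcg
CHAC1 (chr15:40953236-40953295, plus strand): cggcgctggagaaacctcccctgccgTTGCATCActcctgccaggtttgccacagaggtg
SLC1A5 (chr19:46784878-46784937, minus strand): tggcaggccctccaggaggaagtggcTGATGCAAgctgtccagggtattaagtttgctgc
The element begins 68 bases before the start site in ASNS, 191 in ATF3 (1 of its 2 promoters), 209 in CHAC1, where it reads on the opposite strand, and 97 in SLC1A5. A match of letters is a description and no evidence of binding.

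These 4 genes were among those raised in WFPA cells. ASNS, asparagine synthetase, had log2 levels of 12.68, 12.78 and 12.79 in WFPA, 10.59, 10.69 and 10.61 in WWOX and 10.53, 10.53 and 10.50 in EV arrays. It was 4.34-fold higher in WFPA than in WWOX cells (log2 difference -2.12 for WWOX minus WFPA, SE 0.0786, limma adjusted p = 7.71e-07). CHAC1, which degrades glutathione, was 9.27, 9.36 and 9.24 in WFPA, 6.72, 6.88 and 7.10 in WWOX and 7.23, 7.38 and 7.16 in EV arrays. ATF3, a stress-induced repressor, was 9.72 ± 0.112 in WFPA, 7.99 ± 0.292 in WWOX and 8.27 ± 0.189 in EV cells, and SLC1A5, a glutamine carrier, 9.80 in WFPA, 8.50 in WWOX and 8.53 in EV cells (SD, n = 3 arrays each). In all 4 genes EV and WWOX cells lay close together and the WFPA arrays stood above all others.

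The transporter of cystine SLC7A11 differed most, with 11.13, 11.20 and 11.34 in WFPA, 8.24, 8.32 and 7.99 in WWOX and 8.62, 8.56 and 8.66 in EV arrays. It was lower in WWOX cells by 3.04 (SE 0.108, limma adjusted p = 5.62e-07). CTH, which makes cysteine, was lower by 2.58 (SE 0.195, limma adjusted p = 4.06e-05), and the enzymes of serine synthesis PHGDH and PSAT1 by 1.08 and 1.06. The tRNA synthetases GARS1, WARS1 and SARS1 were lower by 1.80, 1.51 and 1.08. DDIT3 was lower by 1.89 and its partner TRIB3 by 1.02. GDF15, a secreted stress factor, stood at 12.17 ± 0.0901 in WFPA, 9.24 ± 0.581 in WWOX and 9.91 ± 0.152 in EV cells, and SESN2, a leucine sensor, at 10.21 ± 0.138, 7.74 ± 0.285 and 8.52 ± 0.377 (SD, n = 3), both with no side called. ATF4 mRNA itself was lower in WWOX cells by 0.87 (SE 0.0784, limma adjusted p = 1.19e-04), under the 2-fold limit.

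Not all genes of the program followed the mutant. The leucine carrier SLC7A5 was 13.04 ± 0.0432 in WFPA and 13.12 ± 0.0972 in WWOX cells, both far above EV (11.39 ± 0.021, SD, n = 3 each). The serine carrier SLC1A4 was likewise at 11.09 and 11.26 against 9.64. DDIT4, an inhibitor of mTOR signaling, lay above EV in WWOX cells too, by 1.13, and in WFPA cells by 2.34. Of 23 ER chaperone and unfolded protein genes 2 were lower in WWOX cells (8.70%, against 2.72% of all genes), with a median of -0.12 over the list. These were HERPUD1, by 1.22, and XBP1, by 1.13, each called at 1 of its 2 probe sets. With the mean of all probe sets they differed by -0.96 and -0.44 and were not called. Of 36 NRF2 and glutathione genes 3 were lower (8.33%), SLC7A11 among them, with a median of -0.09. INHBE, an activin subunit outside the list, stood at 10.11 ± 0.0885 in WFPA, 6.79 ± 0.704 in WWOX and 6.93 ± 0.0503 in EV cells (SD, n = 3).

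**Figure D4:**
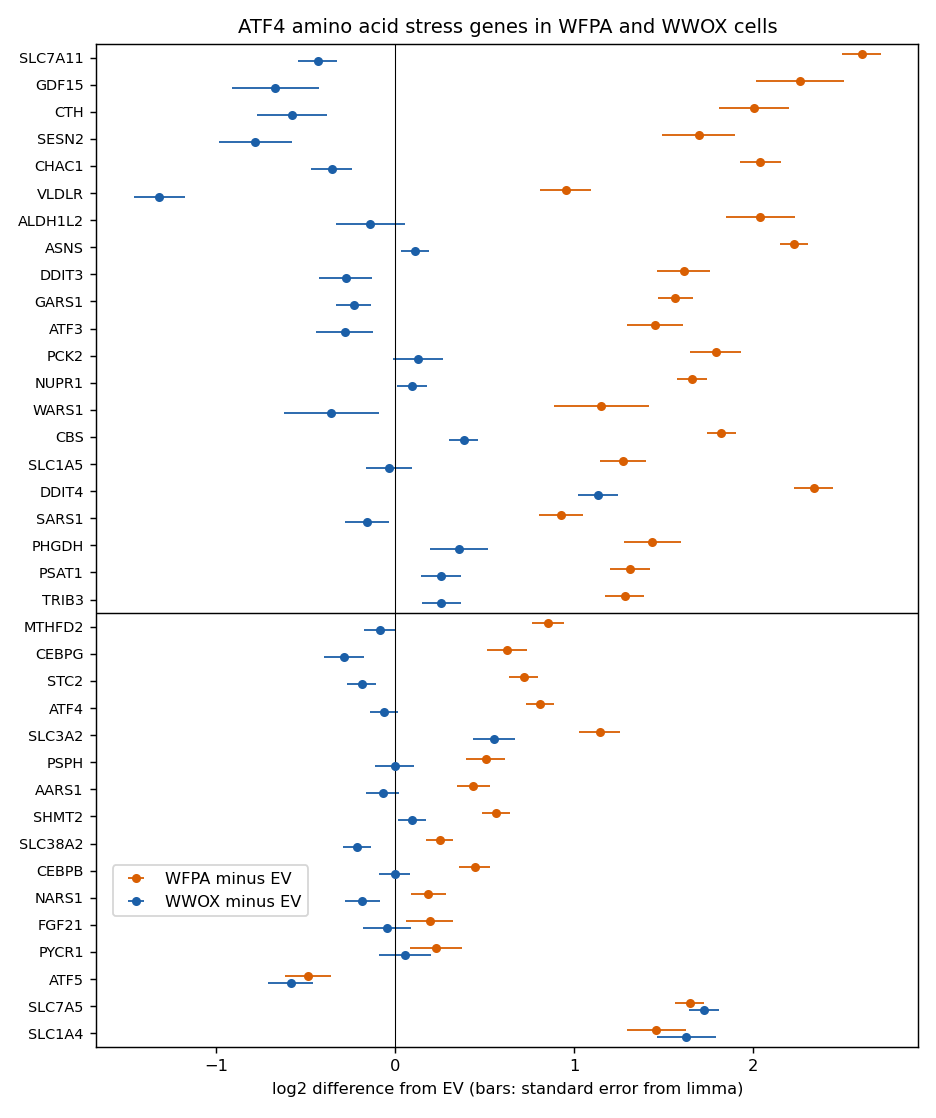
Log2 difference from EV (x axis, mean of 3 arrays with the standard error from limma) of the 37 measured ATF4 genes in WFPA (orange) and WWOX cells (blue), ordered by WWOX minus WFPA, with the 21 called genes above the line. The WFPA points of the called genes lie from 0.92 to 2.60 above EV, and the WWOX points of 16 of them within 0.5 of it.

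Other genes were raised in WFPA cells alone among the 3 groups. HAPLN1, which links hyaluronan to proteoglycans, was 9.79, 9.76 and 9.72 in WFPA, 5.21, 4.86 and 5.40 in WWOX and 4.79, 4.70 and 4.58 in EV arrays. It was 24.2-fold higher in WFPA than in WWOX cells (log2 difference -4.60 for WWOX minus WFPA, SE 0.133, limma adjusted p = 2.58e-07). FUT1, the fucosyltransferase that makes the H antigen, was 11.86, 11.68 and 11.74 in WFPA, 8.38, 8.45 and 7.33 in WWOX and 7.63, 7.64 and 7.64 in EV arrays. E-cadherin (CDH1), the adhesion protein of epithelial junctions, was 7.81, 7.87 and 7.66 in WFPA, 4.50, 4.32 and 4.81 in WWOX and 4.35, 4.91 and 4.74 in EV arrays. For CDH1, EV and WWOX arrays overlapped and the difference of -3.24 (SE 0.168, limma adjusted p = 4.02e-06) lay on the WFPA side.

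Of the genes that were lower in WWOX and further from EV in WFPA cells, the zinc finger gene ZFP82 (-4.50), the mitochondrial carrier SLC25A21 (-4.42), CTHRC1 (-4.38), a secreted matrix protein, and SCG5 (-4.13), a chaperone of prohormone processing, differed most after HAPLN1. ZNF404 (-3.63), OR7E19P (-3.59) and SYNDIG1 (-3.47) followed. The EV and WWOX levels of ZFP82 (3.66 and 3.85) and SLC25A21 (3.23 and 2.91) were under the lower quartile, so these sizes are uncertain. FSTL5, a secreted follistatin-like protein, was raised in both, at 9.26 ± 0.108 in WFPA and 5.65 ± 0.035 in WWOX against 3.01 ± 0.439 in EV cells (SD, n = 3 each). The side of CTHRC1 was near the threshold (limma adjusted p = 0.0484).

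Fewer genes were lower in WFPA cells with WWOX cells nearer to EV. These were 19, and the largest differences were in RNF144A, TMEM47 and JAM3. JAM3, an adhesion molecule of tight junctions, was 7.96, 7.66 and 7.88 in WFPA, 10.83, 11.05 and 11.07 in WWOX and 10.41, 10.47 and 10.44 in EV arrays. It was 8.89-fold higher in WWOX than in WFPA cells (log2 difference 3.15, SE 0.107, limma adjusted p = 5.32e-07), and 1 of its 3 probe sets was called. RNF144A, a ubiquitin ligase, was 4.11 ± 0.35 in WFPA, 7.49 ± 0.235 in WWOX and 8.09 ± 0.164 in EV cells (SD, n = 3). TMEM47, a protein of cell junctions, was 3.55 ± 0.896, 6.85 ± 0.121 and 7.85 ± 0.162 in the same order (SD, n = 3). ALDH1A3, which makes retinoic acid, was lower than EV in both, by 3.25 in WFPA and 1.65 in WWOX cells. PRRX1, a mesenchymal transcription factor, was higher in WWOX than in WFPA cells by 1.76 and the testis antigen MAGEC1 by 1.98, each with WWOX and EV cells within 0.36 of each other. The remaining named genes of this kind, LOC389831, CDC20B, SPIRE2 and DMKN, differed by 1.32 to 1.95. Of their probe sets 1 of 2 was called in LOC389831, 1 of 5 in CDC20B and 1 of 4 in SPIRE2. By the mean of all probe sets CDC20B (0.54), SPIRE2 (0.33) and ALDH1A3 (0.76) were not called.

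Adhesion and junction genes came from both sides. The lists below were called in 11.8%, 11.8%, 5.88% and 14.7% of genes, in the order given. Over all genes the share was 4.73%, close to that of the integrin list. Of 34 adherens and tight junction genes 1 was higher (JAM3) and 3 lower in WWOX cells. CLDN1, a claudin of tight junctions, was 7.47, 7.07 and 6.64 in WWOX, 9.82, 9.65 and 9.98 in WFPA and 9.30, 9.32 and 9.52 in EV arrays, and its difference of -2.75 (SE 0.191, limma adjusted p = 2.42e-05) lay on the WWOX side. CLDN11 was graded, from 11.46 in EV to 10.35 in WFPA and 8.89 in WWOX cells. Of 34 cadherin, catenin and desmosome genes 3 were higher, all on the WWOX side (CTNNA2 by 2.42, CDH19 by 2.03 and the desmoglein DSG2 by 1.09), and CDH1 was lower. Of 34 integrin and focal adhesion genes ITGB8 was higher by 1.23 and TNS1 lower (-1.97), both with no side called. Of 34 adhesion molecules of the immunoglobulin and neuronal type 2 were higher and 3 lower, with the proteoglycan SDC3 higher by 3.17 and the neurexin NRXN3 lower by 2.01, both on the WWOX side. The lower call of SDC2 (-1.19) ended when any of the WFPA arrays or WWOX replicate 3 was left out, with differences of -1.25 to -0.77.

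Matrix genes and proteases differed in both directions. Of the matrix list 18.5% and of the protease list 23.9% were called, against 4.73% of all genes. Of 54 collagen, laminin and matrix glycoprotein genes 3 were higher and 7 lower in WWOX cells. MGP, an inhibitor of calcification, was 10.69, 10.42 and 10.69 in the WWOX and 5.93, 5.62 and 5.72 in the WFPA arrays, with an EV mean of 3.96 ± 0.192 (SD, n = 3), and was 28.7-fold higher in WWOX than in WFPA cells (log2 difference 4.84, SE 0.134, limma adjusted p = 2.1e-07). WFPA cells lay 1.79 above EV (limma adjusted p = 1.17e-04). TIMP3, an inhibitor of metalloproteinases, had the same graded order, at 12.10 ± 0.0694 in WWOX, 10.37 ± 0.0956 in WFPA and 8.82 ± 0.116 in EV cells (SD, n = 3 each). The proteoglycan LUM was higher by 4.34, from 2.07 in WFPA cells, a level near the bottom of the scale. LAMB3, a laminin chain of basement membranes, was lower by 2.66 on the WWOX side (SE 0.117, limma adjusted p = 1.79e-06). Of 46 proteases and inhibitors 5 were higher, all on the WWOX side, and 6 lower. The elastase MMP12 was lower by 2.35 and the collagenase MMP8 higher by 2.80, from 3.12 in WFPA cells.

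Of 31 mesenchymal transition genes 8 were called, 2 of them lower and 6 higher in WWOX cells, with 5 of the 6 on the WWOX side. The share called was 25.8% in this list and 13.3% in the epithelial list, against 4.73% of all genes. TWIST1, a driver of the mesenchymal state, was 9.96, 9.98 and 9.59 in WWOX, 7.46, 6.90 and 7.42 in WFPA and 7.61, 7.59 and 7.28 in EV arrays. Its difference was 2.58 (SE 0.177, limma adjusted p = 2.24e-05). The actin-binding protein TAGLN was lower by 2.17, with 2 of its 3 probe sets called lower. Without WFPA replicate 1 or 3 the remaining TAGLN probe set became the brightest, and it differed by 0.22 and 0.08. Of 30 epithelial genes 1 was higher and 3 lower. The splicing factor ESRP1 was higher by 4.70 (SE 0.426, limma adjusted p = 1.26e-04) and the keratins KRT18 and KRT8 were lower by 1.40 and 1.14, all on the WWOX side, while CDH1 was lower on the WFPA side.

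Several pregnancy-specific glycoproteins were lower in WWOX cells. These are secreted proteins of the placenta that are encoded side by side with the CEACAM genes. Of 16 measured genes of both families 7 were lower (43.8%, against 2.72% of all genes), all of them PSG genes and 6 on the WWOX side. The median of the list was -0.80. PSG2 was 8.90, 8.63 and 8.37 in WWOX, 11.76, 11.81 and 11.88 in WFPA and 11.76, 11.80 and 11.81 in EV arrays, and was 9.11-fold lower in WWOX than in WFPA cells (log2 difference -3.19, SE 0.127, limma adjusted p = 1.05e-06). PSG6, PSG3 and PSG5 were lower by 1.82, 1.80 and 1.76. Their sequences are alike, and probe sets of the family can read several members.

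Among signaling genes, the cytokines divided by side. Of 36 cytokines and chemokines 1 was higher and 7 lower in WWOX cells, and the median over the list was 0.03. Shares called were 22.2% in this list, 12.96% in the JAK-STAT, 7.89% in the interferon and 19.6% in the TGF-beta list. They were 1.75% for Wnt, 2.17% for receptor tyrosine kinase and 16.1% for ERK feedback genes, against 4.73% of all genes. IL32 (9.92 in WFPA, 6.98 in WWOX and 7.21 in EV cells) and IL15 (7.71, 5.32 and 5.15), both inflammatory, were raised in WFPA cells. IL18 is a product of the inflammasome. It was 3.41, 3.50 and 3.75 in WWOX, 6.29, 6.45 and 6.61 in WFPA and 7.12, 7.26 and 7.42 in EV arrays. WFPA cells lay below EV too (difference -0.82, limma adjusted p = 0.00646). WWOX cells lay further from EV, at a level under the lower quartile, so that the side was that of WWOX. CASP1, the protease that activates IL18, was lower by 2.25 on the same side (SE 0.178, limma adjusted p = 5.28e-05). Of 54 JAK-STAT genes 2 were higher and 5 lower, with the decoy receptor IL13RA2 lower by 2.71 and the feedback inhibitor SOCS2 by 1.59, both on the WWOX side. Of 38 interferon-stimulated genes 3 were lower, SAMD9 by 2.84 and SAMD9L by 2.27 on the WWOX side and IFIT2 by 1.03, the last no longer called without WWOX replicate 3 (-0.99). The checkpoint ligand CD274 was lower by 1.50 on the WWOX side. Of 46 genes of TGF-beta, activin and BMP signaling 3 were higher and 6 lower, among them the coreceptor TGFBR3, higher by 3.54 with no side called. Of 57 Wnt genes only WNT5A was called. Of 46 genes of receptor tyrosine kinases and FGF ligands only FGF1 was called, lower by 2.17, and of 31 ERK feedback genes 3 were higher and 2 lower, with DUSP5, a phosphatase of ERK, lower by 1.39.

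**Figure D5:**
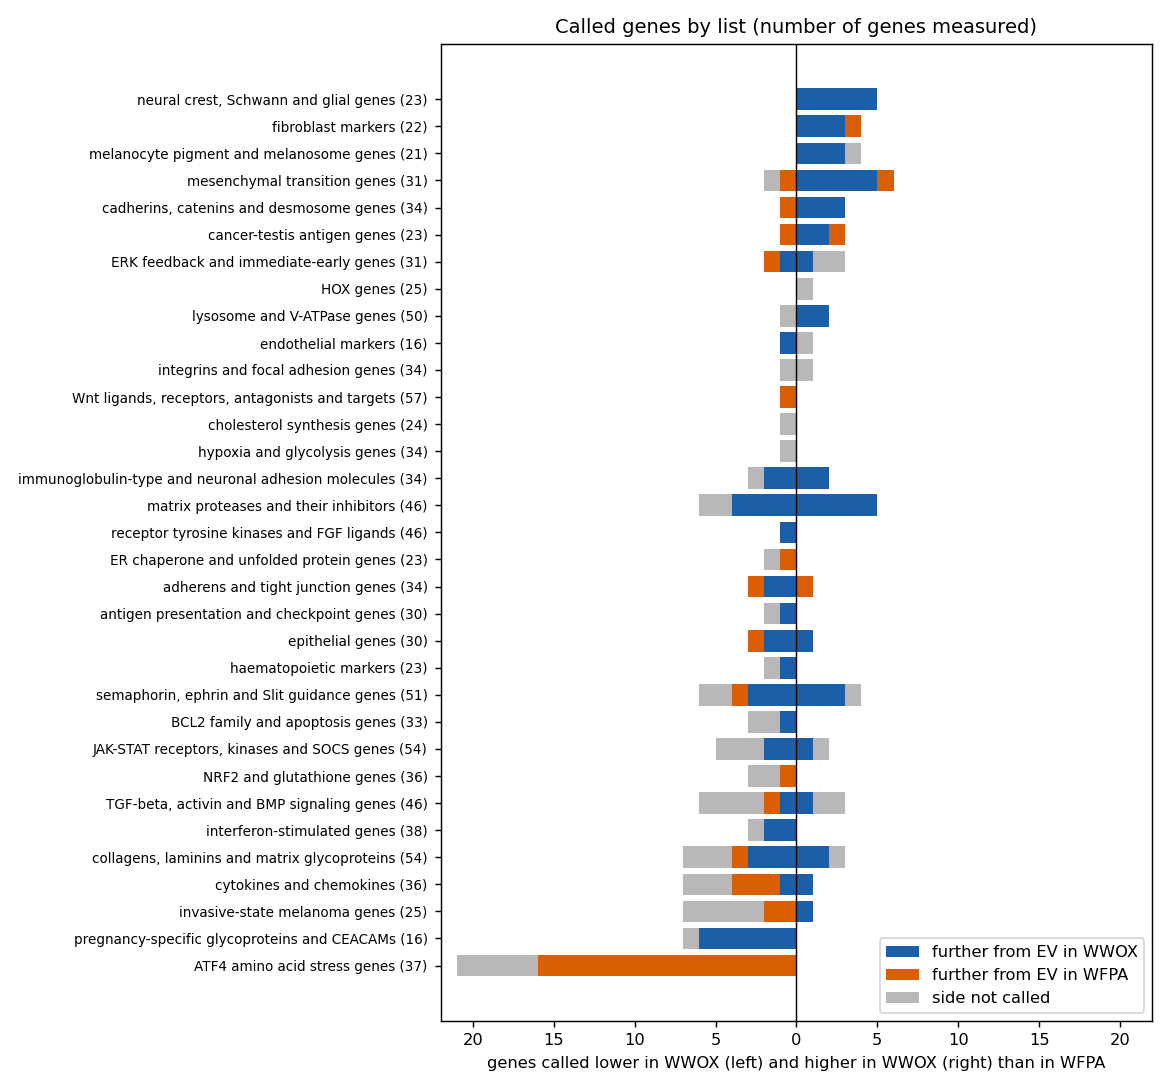
Number of genes called lower (left) and higher (right) in WWOX than in WFPA cells in each list with any call, with the number of measured genes in parentheses, colored by the group further from EV. Neural crest genes lie wholly on the WWOX side to the right, PSG genes mostly on the WWOX side to the left, and 16 of the 21 ATF4 genes on the WFPA side.

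No partner of WWOX was called at the mRNA level, where 4.73% of all genes were called. These were 24 measured genes for proteins linked to WWOX, mostly by binding, with a median difference of 0.10, and 11 had an unadjusted p under 0.05 in limma. Among genes the study follows, DVL2, a Wnt signaling protein, differed by 0.25 (limma adjusted p = 0.0658), SCAMP3 by 0.10, CDC5L by 0.25, SMAD3 by 0.03, SMAD4 by -0.11, FN1 by -0.17, AXIN2 by 0.25, JAK2 by 0.27 and STAT3 by -0.25. At these probe sets none was called, with adjusted p-values from 0.0658 to 0.867 in limma. A dimmer probe set of CDC5L and another of SMAD4 were called lower (differences of -1.004 and -1.18). MYC was 8.68, 8.67 and 8.81 in WWOX, 9.79, 9.55 and 9.78 in WFPA and 9.94, 10.13 and 9.59 in EV arrays. Its difference of -0.99 (SE 0.142, limma adjusted p = 0.00173) stood just under the 2-fold limit, and was called without WFPA replicate 2 (-1.07) or WWOX replicate 3 (-1.03).

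Several lists held no called gene in either direction. These were 35 respiratory chain genes, 39 mitosis genes, 46 DNA replication genes and 14 reference genes, with medians of 0.07, 0.17, 0.15 and -0.01, though a replication gene was called when any of several arrays was left out. In the same order 8, 20, 26 and 4 of these genes had an unadjusted p under 0.05 in limma, with differences under 2-fold or no adjusted call. The lists below were called in 6% (lysosome), 19.6% (guidance), 9.09% (apoptosis), 4.17% (cholesterol), 2.94% (hypoxia), 4% (HOX) and 17.4% (cancer-testis) of genes. Over all genes the share was 4.73%. Of 50 lysosome and V-ATPase genes 2 were higher, ATP6V0D2 and the channel MCOLN3 (2.40), and the protease CTSL was lower by 1.23. Of 51 guidance genes 4 were higher, with the receptor NRP2 (1.65) among them, and 6 lower, with SEMA4D (-2.49). Of 33 BCL2 and apoptosis genes 3 were lower, CASP1, CASP4 (-1.75) and PMAIP1 (-1.15). A gene each was lower among 24 cholesterol genes (STARD4) and 34 hypoxia genes (EPAS1), and HOXD13 was the gene higher among 25 HOX genes. EPAS1 was called at 1 of its 3 probe sets, and by their mean it differed by -0.33 and was not called. HOXD13 was likewise called at 1 of 3, and lost its call by their mean and at its probe set of largest variance. Of 23 cancer-testis antigens 3 were higher and SSX1 was lower, by a difference of -1.26 that lost its call without WFPA replicate 3 (-1.06) or WWOX replicate 2 (-0.96). The sperm proteins ROPN1B and ROPN1, which share sequence, were higher by 4.89 and 4.45.

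Some markers of other cell types were called. They were 18.2% of the fibroblast, 12.5% of the endothelial and 8.70% of the haematopoietic list, against 4.73% of all genes. Of 22 fibroblast markers 4 were higher (LUM, PRRX1, FAP and S100A4) and none lower, with a median difference of 0.13 over the list. The summed level adds unlogged values and is given as log2. Over the 22 markers it was 12.81 to 12.93 in WWOX, 11.76 to 11.92 in WFPA and 11.66 to 11.84 in EV arrays. Bright genes weigh most in such a sum, and S100A4 alone stood at 12.45 in WWOX, 11.29 in WFPA and 10.94 in EV cells. The number of the 22 markers under the lower quartile was 5 in WWOX and 7 in WFPA cells. Of 16 endothelial markers ROBO4 was lower by 2.66 and ERG higher by 1.09. The ERG call ended without WFPA replicate 2 or 3 or WWOX replicate 3 (0.76 to 1.11). Their summed level was 10.42 to 10.94 in WWOX and 11.29 to 11.39 in WFPA arrays, where ROBO4 alone stood at 7.87 and 10.53. Of 23 haematopoietic markers HBE1 was lower by 3.52, and PTPRC, the leukocyte phosphatase CD45, was lower too (-2.19). No keratinocyte marker of 15 and no neuron marker of 19 was called, and 1 and 5 of them had an unadjusted p under 0.05 in limma. All samples were cultures of 1 selected line, so calls of these markers do not count cells of other types. Whether other cells were present was not tested.

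The arrays of each group resembled each other. Pearson correlations over all probe sets, which are not independent, were 0.996 between WFPA arrays, 0.987 to 0.993 between WWOX arrays and 0.975 to 0.983 between the groups. WWOX replicate 3 stood furthest from the others. The 3′ minus 5′ difference of the GAPDH probe sets, a sign of RNA quality, was 0.36 to 0.516 on all arrays, and that of the ACTB probe sets 1.23 to 1.45. Of the fits that left out 1 array, those without WWOX replicate 1 and without WWOX replicate 3 gave the highest and lowest number of lower probe sets, 1805 and 1184, against 1351 with all arrays.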

How the data were processed

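RNA of 3 EV, 3 WFPA and 3 WWOX samples was read on Affymetrix U133 Plus 2.0 arrays. Log2 expression values were deposited by the authors, who had used Partek Genomics Suite 6.5 for quality control, calibration and normalization of the scans. The background correction and summarization method is not given in the sources used here. These values were used as deposited. Control probe sets (62 of 54675) were left out. Of the rest, 41091 were assigned to 1 gene, 1801 to several and 11721 to none, and symbols were updated by gene identifier through RefSeq (19735 of 19775 genes matched). Where several probe sets read a gene, the brightest on average across the 9 arrays was taken.

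limma 3.58.1 (R 4.3.3) was fitted with 1 mean per group over all 9 arrays (6 residual degrees of freedom). Calls required a Benjamini-Hochberg adjusted p under 0.05 over all probe sets and a 2-fold difference. The side contrast, WWOX plus WFPA minus EV counted 2 times and divided by 2, required the adjusted p alone. The fit was tested on simulated data. Promoters and their coordinates came from RefSeq (GRCh38.p14). Arrays give no read depth, and their number limits the precision.

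The text names the 12 largest differences in each direction, the 10 largest in each direction on the WFPA side, up to 4 called genes per list, and genes the study follows. The genes TYR, PMEL, MLANA, TYRP1, SOX9, PAX3, ATF4, SLC7A5 and SLC1A4 and the ATF4 list's further members were named after their values were seen. All members and lists were chosen with earlier results of these data known. Alternatives were other fold limits, adjustments, variance models, scalings, filters and probe set rules, a replicate block, and leaving out each array.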

Additional observations from a re-analysis of the deposited data

How the results depend on the processing

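With a Bonferroni adjustment the higher probe sets numbered 275 and the lower ones 289, with 124 of them further from EV in WWOX and 30 in WFPA cells, and 12 ATF4 genes were lower. At the 4-fold limit these numbers were 253, 259, 291 on the WWOX side and 87 on the WFPA side, with 8 ATF4 genes. With no fold limit they were 3728, 5157, 1516 and 677, with 32 ATF4 genes. When the side was read from the EV position alone (0 at the WFPA and 1 at the WWOX level, with limits of 0.25 and 0.75), a rule added after seeing the data, 386 calls lay on the WFPA side and 1061 on the WWOX side. Leaving out each array in turn gave 773 to 935 higher and 1184 to 1805 lower probe sets, 556 to 890 on the WWOX side, 164 to 260 on the WFPA side, and 20 to 21 ATF4 genes. TAGLN ranged from -2.25 to 0.22, because another probe set became the brightest, and CDC5L was -1.004 at its probe set of largest variance. Taking the mean of all probe sets of a gene ended the call of 19 of the 135 named genes. Among these were DSG2 (0.57), CLDN11 (-0.80), CD274 (-0.96) and NRXN3 (-0.83). MYC was called without WFPA replicate 2 or WWOX replicate 3. Same-numbered arrays did not deviate together (correlations -0.05 to 0.03), so the numbers do not pair them, and with the replicate block 816 probe sets were higher and 1337 lower, with 676 and 221 on the WWOX and WFPA sides. The block, quantile normalization and median centring changed no call among the named genes. Levels under the lower quartile limit the size of differences, as no background level is known.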

Other observations

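The calls of WWOX against WFPA cells were also counted by chromosome. Chromosomes were looked at after other results were known, and the genes counted are the 12498 at or above the median level, of which 2.38% were called higher and 3.45% lower, with a median difference of 0.02. Of 206 genes on chromosome 13, 2 were called higher and 22 (10.7%) lower in WWOX cells, with a median difference of -0.29. Their median was 0.28 above EV in WFPA cells and -0.03 from EV in WWOX cells. Of 387 genes on chromosome 15, 16 (4.13%) were higher and 3 (0.775%) lower, with a median of 0.22, and their medians against EV were 0.09 in WWOX and -0.13 in WFPA cells. On chromosome 22 the share higher was 3.90%, close to that of chromosome 15. Chromosome copy number was not analysed here.

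Zinc finger genes with a numbered ZNF or ZFP name, were likewise chosen after values were seen. Of 443 measured, 4 (0.903%) were higher and 33 (7.45%) lower in WWOX cells, with a median of -0.17. Over all genes 2.01% were higher and 2.72% lower, with a median of 0.07. Of the 33 lower genes 4 lay further from EV in WWOX cells, 6 in WFPA cells and 23 on no called side. No list was given a set test, and these counts are descriptions.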
